A study of Mus musculus with 10 samples.

Results

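Non-muscle myosin II and its phosphatase were followed in mouse keratinocytes with and without the small GTPase RhoA. The members were 10 genes: the heavy chain genes Myh9, Myh10 and Myh14, the essential light chain gene Myl6, the regulatory light chain genes Myl9, Myl12a and Myl12b, the light chain kinase gene Mylk, and the phosphatase genes Ppp1r12a and Ppp1cb. Every probe set that the platform annotation gives to exactly 1 of these symbols was taken, which made 25 probe sets of the 45037 in the table and 10 of the 18193 named genes. The rule picks probe sets by gene name and not by a measured value; the genes themselves were chosen with earlier results of these data known.

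The study compared keratinocytes carrying homozygous floxed RhoA (RhoA fl/fl K5 cre, called RhoA-KO) with keratinocytes carrying a single floxed allele (RhoA fl/+ K5 cre, called Wildtype in the titles and control here). Every group thus carried the same Cre transgene, driven by the K5 promoter of basal keratinocytes, and the controls had 1 unfloxed RhoA allele. There were 2 control and 2 KO arrays of cells freshly isolated from epidermis, and 3 control and 3 KO arrays of primary cultures. The labels call the arrays biological replicates and name no animals, ages, strains or culture days, so p-values measure the spread between these arrays.

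Non-muscle myosin II is the motor that pulls on actin filaments in cells without muscle. A molecule holds a pair of heavy chains, each with an essential and a regulatory light chain, and phosphorylation of the regulatory light chain switches the motor on. Myosin light chain kinase and other kinases add the phosphate, and myosin phosphatase removes it. That enzyme joins a catalytic subunit, from Ppp1cb, to a targeting subunit, from Ppp1r12a. RhoA acts on this motor chiefly through phosphorylation, which an expression array does not measure. A second route runs through transcription, since actin assembly downstream of RhoA releases cofactors of serum response factor, which binds a motif called the CArG box.

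The CArG box was looked for in RefSeq promoter windows of GRCm38.p6, from 250 bases before to 50 after each start site, and all 10 members had a window. An exact box was in 2 of the 11 member windows, for Myl9 and for 1 of the windows of Myl6, against 1.63% of all 32851 windows. The box reads alike in form on both strands and is a match of letters, not a shown binding site. Both matches are printed 5′ to 3′ on the gene's strand with the box in capitals, because these are the members whose windows hold the motif of the actin-responsive route. The Myl9 stretch is chr2:156775293-156775322 on the plus strand, with its box starting 161 bases before the start site, and the Myl6 stretch is chr10:128493040-128493069 on the minus strand, with its box starting 50 bases before.
Myl9: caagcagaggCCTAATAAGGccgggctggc
Myl6: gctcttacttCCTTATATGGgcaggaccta

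The deposited values are probe set intensities on a linear scale, and the scale differs between the conditions. The array medians lay at 64.1 to 64.8 in fresh cells and at 7.75 to 8.0 in culture, so signals were compared only within a condition. The targeted gene itself gives no check of the labels. Its most intense probe set read 11249, 9879 and 9240 in cultured controls and 8209, 7839 and 7628 in cultured KO (log2 change -0.35, limma adjusted p = 0.156). In fresh cells it read 3526 and 4059 in controls and 4398 and 4296 in KO (log2 change 0.20, limma adjusted p = 0.434). Whether these probes lie inside the deleted part is not known here. The basal keratin genes Krt5 and Krt14 read 21546 to 27346 in fresh cells and 46739 to 59207 in culture. Of the suprabasal keratin genes, Krt1 read 4.3 to 26.7 in culture and Krt10 426 to 712, the latter above the median on every cultured array. In fresh cells Krt1 read 12360 and 10562 in controls and 16933 and 17555 in KO, higher on both KO arrays (log2 change 0.59, limma adjusted p = 0.242). Krt10 read 29043 and 29412 in fresh controls and 29537 and 30458 in fresh KO (log2 change 0.04, limma adjusted p = 0.737). Fresh KO replicate 2 stood apart. The summed signal of 9 hair follicle genes was 37490 there against 532 to 1285 on the other fresh arrays. That of 5 melanocyte genes was 4350 against 439 to 892. That of 6 fibroblast genes was 1344 against 278 to 445, mainly through Dcn, at 1012 there and 137 in KO replicate 1. Between the same KO arrays Pdgfra read 37.7 against 24.5 and Col3a1 93.9 against 82.6. Col1a1, Col1a2 and Lum were close on both. The sum of 6 Langerhans and myeloid genes was lowest in KO replicate 2, at 5623, against 11989 in KO replicate 1 and 18245 and 14380 in controls.

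No transcript of the motor or its phosphatase passed the test between genotypes. In culture 20 of the 25 probe sets, for 9 genes, were bright enough to be tested (brighter than the array's median on 2 or more arrays), and limma called 0 of them after Benjamini-Hochberg adjustment at 0.05, where it called 0.273% of all probe sets. At an unadjusted p under 0.05 there were 2 higher and 0 lower, beside 7.16% and 8.49% of all probe sets. In fresh cells 20 probe sets for 8 genes were tested and 0 were called, where 0.0% of all probe sets were called. At an unadjusted p under 0.05 there were 0 higher and 5 lower, beside 6.01% and 6.89% of all probe sets. Without fresh KO replicate 1, which leaves 1 KO array, limma called 945 of all probe sets in fresh cells, 1 of them a member's, and without KO replicate 2 it called 11, none a member's.

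The intervals show how large a change these arrays could still hide. Of the 20 cultured probe sets, 16 had a 95% interval within 2-fold in either direction and 13 within 1.5-fold. In fresh cells these counts were 19 and 14 of 20. The median log2 change over the members tested was 0.00 in culture and -0.06 in fresh cells, beside -0.01 and 0.00 over all probe sets. Its median size, whatever the sign, was 0.18 and 0.10 for the members and 0.14 and 0.15 for all probe sets.

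**Figure D1:**
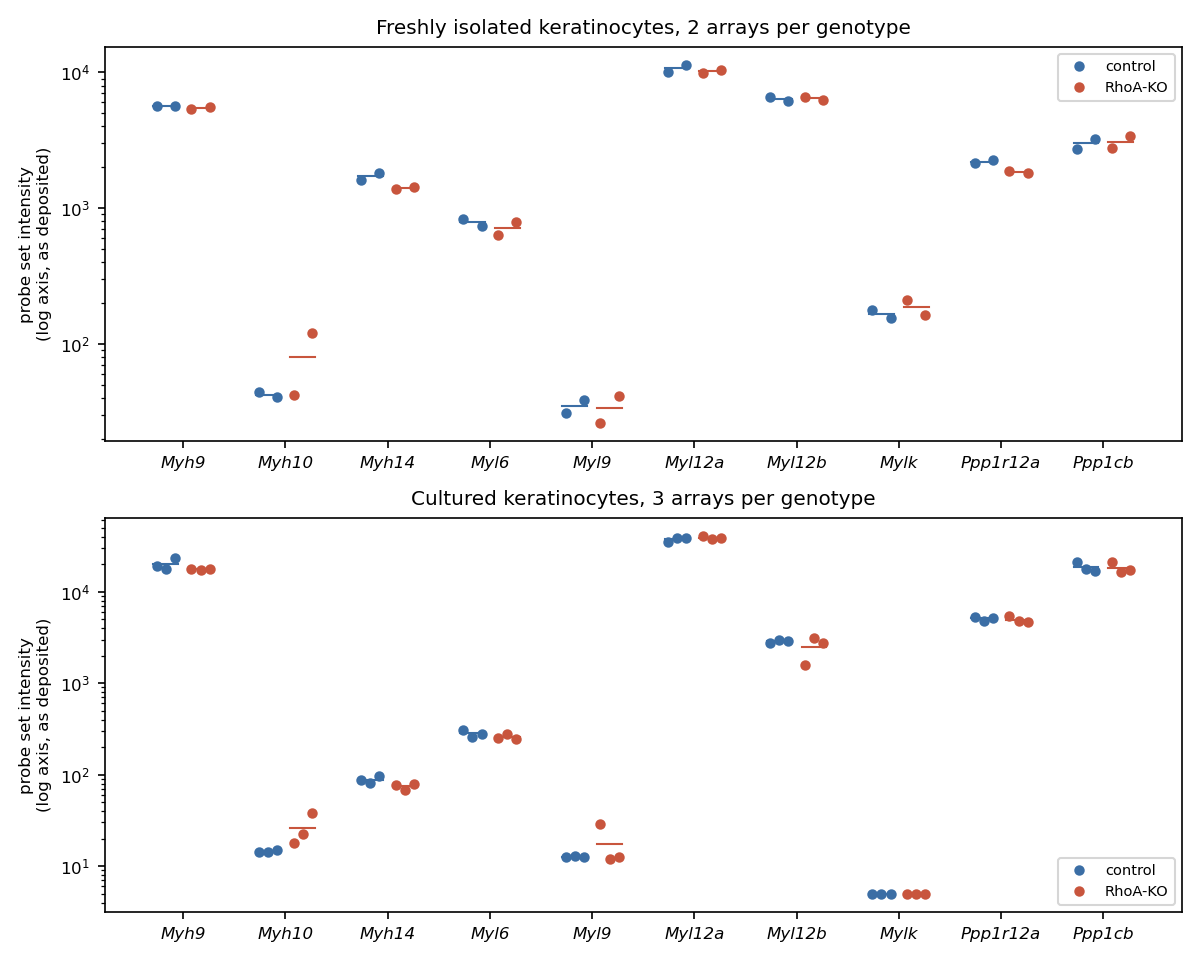
Probe set intensity (log axis, as deposited) of the most intense probe set of each member, with 1 point per array and a line at the mean, for fresh cells above and cultured cells below. Control and KO points lie close together for most members; Myh10 in culture is at 14.2 to 15.1 in control and 17.7 to 37.7 in KO, single KO arrays stand off for Myl9 and Myl12b in culture and Myh10 in fresh cells, and signals are not comparable between genes or between the panels.

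Myh9 encodes the heavy chain of non-muscle myosin IIA, the main isoform of most epithelial cells. Its most intense probe set read 19036, 17744 and 23464 in cultured controls and 17779, 17440 and 17618 in cultured KO. The KO arrays lay close together, near the lowest control, and the groups overlapped (log2 change -0.18, SE 0.11, 95% interval -0.44 to 0.08, limma adjusted p = 0.464). In fresh cells it read 5624 and 5637 in controls and 5402 and 5526 in KO, a log2 change of -0.04 (95% interval -0.20 to 0.12, limma adjusted p = 0.800).

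The other 4 Myh9 probe sets did not all point the same way. The probe set 1417472_at read 3796, 2377 and 3010 in cultured controls and 2477, 2098 and 2269 in KO (log2 change -0.40, limma adjusted p = 0.347). Control replicate 1 was the highest of these 6 arrays, as it was for 1420170_at, at 2088 against 860 to 1282 on the others. Without it the log2 change of 1417472_at was -0.23, and that of 1420170_at was -0.21 in place of -0.53; without control replicate 2 the latter was -0.81. The probe set 1420172_at went the opposite way, at 15196, 19792 and 15752 in cultured controls and 19247, 17943 and 19104 in KO (log2 change 0.16, limma adjusted p = 0.523). In fresh cells that probe set read 2908 and 3205 in controls and 2571 and 2553 in KO (log2 change -0.25, limma adjusted p = 0.343). The dim probe set 1440708_at read 192 and 189 in fresh controls and 146 and 140 in fresh KO (log2 change -0.42, limma adjusted p = 0.320). Both fresh KO arrays lay below both controls on both of these probe sets, and neither passed the threshold.

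Myh14 encodes the heavy chain of non-muscle myosin IIC, an isoform of polarised epithelia. It was lower in KO on every array in both conditions without passing the test in either. In fresh cells its probe set read 1618 and 1802 in controls and 1387 and 1431 in KO (log2 change -0.28, SE 0.10, 95% interval -0.52 to -0.03, limma adjusted p = 0.349). In culture it read 87.9, 81.8 and 95.7 in controls and 77.3, 68.5 and 79.0 in KO (log2 change -0.24, SE 0.11, 95% interval -0.52 to 0.04, limma adjusted p = 0.373). Groups that did not overlap, with KO lower, were found for 12.2% of all cultured and 23.5% of all fresh probe sets tested.

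Myh10 encodes the heavy chain of non-muscle myosin IIB, which is prominent in neural and mesenchymal cells. It was dim everywhere, and it had the largest log2 change among the members in culture. Its brighter probe set read 14.2, 14.4 and 15.1 in cultured controls and 17.7, 22.5 and 37.7 in KO (log2 change 0.76, SE 0.27, 95% interval 0.10 to 1.43, limma adjusted p = 0.272). All 3 KO arrays lay above all controls, which 10.1% of all cultured probe sets tested did too, and KO replicate 3 was the highest. Without that array the log2 change was 0.46 (limma adjusted p = 0.376), and with 16 added to every intensity it was 0.43 (limma adjusted p = 0.310). The summed signal of 5 melanocyte genes on the same arrays was 217, 475 and 259 in controls and 418, 780 and 1315 in KO, also highest in KO replicate 3. Their part in the Myh10 signal was not tested. The 6 fibroblast genes summed to 43.7 to 56.3 in control and 45.9 to 53.8 in KO cultures, with 5 of the 6 below the array median on every cultured array and Pdgfra, at 17.3 to 30.5, above it on every cultured array.

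In fresh cells the same Myh10 probe set was too dim to be tested, at 44.0 and 40.4 in controls and 41.8 and 119 in KO. The high array was KO replicate 2, which also carried the most hair follicle and melanocyte signal and the most signal of the fibroblast gene Dcn. The part of these cells was not tested. More cells of a type and more RNA per cell cannot be told apart in such bulk samples. The second Myh10 probe set lay below the array median on all 10 arrays.

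The regulatory light chain takes the activating phosphate, and none of its 3 genes passed the test. Myl12a read 35303, 38728 and 38764 in cultured controls and 40658, 37729 and 38688 in KO. This was the most precise member in culture, with a log2 change of 0.05 (SE 0.05, 95% interval -0.08 to 0.19, limma adjusted p = 0.663). In fresh cells Myl12a read 10071 and 11344 in controls and 9971 and 10428 in KO (log2 change -0.07, 95% interval -0.26 to 0.13, limma adjusted p = 0.737). Its second probe set had log2 changes of 0.00 in culture and -0.17 in fresh cells, neither past the threshold.

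Myl12b, the close neighbour and near twin of Myl12a, read 2742, 2964 and 2899 in cultured controls and 1582, 3123 and 2765 in KO. Only KO replicate 1 was low, and the other KO arrays lay within or above the control range (log2 change -0.26, SE 0.26, limma adjusted p = 0.657). The fresh arrays read 6597 and 6171 in controls and 6634 and 6255 in KO (log2 change 0.01, 95% interval -0.17 to 0.19, limma adjusted p = 0.951). Its second probe set lay below the array median on all arrays. Transcripts as alike as those of Myl12a and Myl12b may share probes, which was not checked here.

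Myl9 encodes the regulatory light chain typical of smooth muscle and of fibroblasts under tension. It was close to the array median in culture and below it on all 4 fresh arrays. It read 12.5, 13.0 and 12.5 in cultured controls and 28.6, 11.9 and 12.5 in KO, so KO replicate 1 alone was higher (log2 change 0.36, SE 0.34, 95% interval -0.48 to 1.20, limma adjusted p = 0.651). With array weights the log2 change was 0.11 and with 16 added to every intensity 0.20. In fresh cells it read 30.8 and 38.4 in controls and 25.9 and 41.3 in KO. Of 10 smooth muscle genes, Acta2, Smtn, Des and Tagln were above the array median on every fresh array and the other 6 below it. Acta2 read 467 to 915 and Smtn 648 to 947 in culture, while Myh11, the smooth muscle heavy chain gene, read 8.4 to 8.7 there, just above the median, and Actg2, Cnn1, Lmod1, Synpo2 and Des lay below it. The 10 genes summed to 1481 to 1863 in cultured control, 1245 to 1531 in cultured KO, 831 to 915 in fresh control and 852 to 973 in fresh KO.

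Myl6 encodes the essential light chain. Its only probe set of its own read 310, 260 and 275 in cultured controls and 250, 280 and 248 in KO (log2 change -0.12, SE 0.11, limma adjusted p = 0.653). On fresh arrays Myl6 read 834 and 734 in controls and 631 and 793 in KO (log2 change -0.15, SE 0.15, limma adjusted p = 0.714). The groups overlapped in both conditions. A further 2 probe sets are annotated to Myl6 together with Gm8894 and Gm5526, and so fall outside the members. They were far brighter, at 32883 to 48607 in culture and 7857 to 10703 in fresh cells, and their log2 changes were 0.01 to 0.02 in culture and 0.06 to 0.16 in fresh cells, none past the threshold.

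Mylk, the calcium- and calmodulin-driven light chain kinase gene, was measured above the array median only in fresh cells. Its brightest probe set read 178 and 155 in fresh controls and 210 and 164 in fresh KO (log2 change 0.16, SE 0.17, 95% interval -0.28 to 0.60, limma adjusted p = 0.728). On the 6 cultured arrays the same probe set read 4.9 to 5.0, and all 3 Mylk probe sets lay at 4.0 to 5.4, at the low end of these arrays. No Mylk probe set could therefore be tested in culture.

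Ppp1r12a encodes the targeting subunit that brings the phosphatase to myosin. Its most intense probe set read 5307, 4826 and 5141 in cultured controls and 5368, 4803 and 4686 in KO (log2 change -0.04, SE 0.07, 95% interval -0.22 to 0.14, limma adjusted p = 0.828). On the fresh arrays it read 2134 and 2261 in controls and 1862 and 1812 in KO, lower on both KO arrays (log2 change -0.26, SE 0.08, 95% interval -0.47 to -0.05, limma adjusted p = 0.336). The groups did not overlap in fresh cells and overlapped in culture.

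A further Ppp1r12a probe set, 1429487_at, depended on single arrays in fresh cells. It read 1010, 1038 and 1074 in cultured controls and 1255, 1126 and 1332 in KO, higher on every KO array (log2 change 0.25, SE 0.09, 95% interval 0.04 to 0.46, limma adjusted p = 0.267). In fresh cells it read 1043 and 1017 in controls and 1007 and 576 in KO (log2 change -0.44, limma adjusted p = 0.533). The low value was that of KO replicate 2, the array with the hair follicle signal. Without KO replicate 1, limma called this probe set (log2 change -0.84, adjusted p = 0.0242); replicate 2 alone then stood for the genotype, with its spread taken from the controls. Without KO replicate 2 the log2 change was -0.03 (limma adjusted p = 0.947). The remaining 2 Ppp1r12a probe sets had log2 changes of 0.00 and 0.20 in culture and 0.01 and 0.11 in fresh cells.

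Ppp1cb encodes the catalytic subunit. Its most intense probe set read 21171, 17550 and 17010 in cultured controls and 20989, 16531 and 17393 in KO (log2 change -0.02, SE 0.12, 95% interval -0.33 to 0.28, limma adjusted p = 0.960). Replicate 1 was the highest array in each genotype. On fresh arrays it read 2731 and 3254 in controls and 2760 and 3383 in KO (log2 change 0.04, SE 0.14, limma adjusted p = 0.931). Here replicate 2 was the higher array in each genotype. The probe sets 1433540_x_at and 1456462_x_at gave log2 changes between -0.09 and 0.04 in both conditions.

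The probe set 1431328_at stood apart from the other 3 of Ppp1cb. It read 422, 579 and 440 in cultured controls and 671, 531 and 535 in KO (log2 change 0.28, limma adjusted p = 0.473). The fresh arrays read 509 and 630 in controls and 460 and 372 in KO (log2 change -0.45, SE 0.17, limma adjusted p = 0.368). Both fresh KO arrays were below both controls, while the other Ppp1cb probe sets overlapped.

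**Figure D2:**
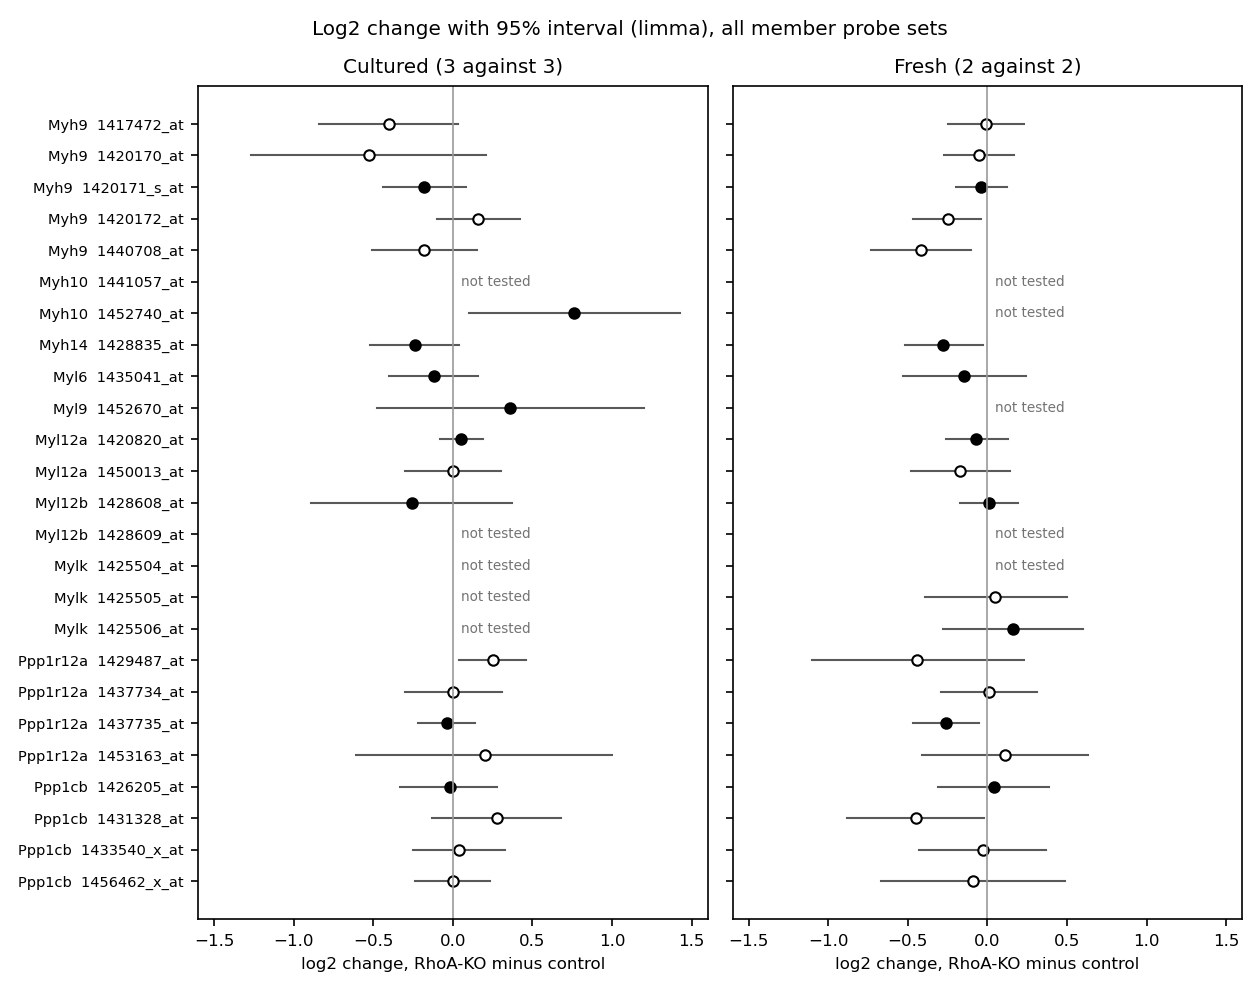
Log2 change (KO minus control) with its 95% interval from limma for all 25 member probe sets, in culture on the left (3 against 3 arrays) and fresh cells on the right (2 against 2); filled points mark the most intense probe set of a gene, and 5 probe sets per condition were too dim to be tested. The changes run from -0.53 to 0.76 in culture and from -0.45 to 0.16 in fresh cells, and limma called 0 in either condition.

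In fresh cells the KO arrays lay wholly below the controls for 8 of the 20 probe sets tested and wholly above for 0, where 23.5% of all probe sets did each. The 8 came from Myh9 (3), Ppp1r12a (2), Myh14, Myl12a and Ppp1cb, so they are not independent. The Langerhans and myeloid genes were lower on the same arrays. Of these genes 4 of 6 lay wholly below the controls, among them Cd74 (log2 change -1.15) and H2-Aa (-1.06), with none called. Of the 8 keratinocyte genes, Krt1, Krt10, Krt14 and Perp lay wholly above the controls and Trp63 and Itga6 wholly below. The part of either cell type in the member signals was not tested. In culture 2 were wholly above, for Myh10 and Ppp1r12a, and 1 wholly below, for Myh14, beside 10.1% and 12.2% of all probe sets. No probe set was wholly on the same side in both conditions except that of Myh14.

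The KO effect in culture was then set against the KO effect in fresh cells for the 18 member probe sets of 7 genes tested in both. This was a t test on the log2 changes and standard errors of both limma fits. A limma adjusted p given for a difference is that of this t test. The test called 0 of the member probe sets, and 0.879% of all probe sets. At an unadjusted p under 0.05 there were 3, all more positive in culture, as were 7.30% of all probe sets. These were Ppp1cb 1431328_at (difference 0.73, SE 0.24, limma adjusted p = 0.155), Myh9 1420172_at (0.41, SE 0.14, limma adjusted p = 0.161) and Ppp1r12a 1429487_at (0.68, SE 0.28, limma adjusted p = 0.272). In each of these genes the most intense probe set showed a smaller difference, of -0.06, -0.14 and 0.22. Without fresh KO replicate 1 the fresh KO group is the single outlying array, its spread is taken from the controls, and 1302 of all probe sets were called in place of 165. The Ppp1r12a probe set (1.09, limma adjusted p = 0.00423) and that of Ppp1cb (0.88, limma adjusted p = 0.0470) were among them; without KO replicate 2 the count over all was 111 and no member was called.

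Levels in culture and in tissue were set side by side as ranks, the percentile of a probe set among all probe sets of its own array. The most intense probe sets of Myh9 and Myl12a stood near the top in both conditions. They were at percentiles 98.6 to 98.7 and 99.3 to 99.5 in fresh cells and 98.5 to 98.9 and 99.4 to 99.5 in culture. Medians of the other Myh9 probe sets shifted by -3.7 (1417472_at), -9.1 (1420170_at), 2.1 (1420172_at) and -7.3 points (1440708_at). Myh14 stood at 92.3 to 94.2 on fresh arrays and 64.2 to 66.3 on cultured arrays. Its median shifted by -27.6 points, and 11.7% of the 21020 probe sets above the median on every fresh array shifted as low. The brightest Mylk probe set went from 65.4 to 69.3 down to 23.9 to 24.3, a shift of -42.1 points, and 6.8% of those probe sets shifted as low. Myl12b went from 98.8 to 98.9 down to 88.3 to 92.6. The median of Myl6 shifted by -13.3 points. Medians of the dim Myl9 and Myh10 probe sets shifted upwards, by 25.3 points for Myl9 and by 18.7 and 10.7 points for Myh10.

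Ranks of the phosphatase genes moved less than those of Myh14 and the brightest Mylk probe set, or upwards. The most intense Ppp1cb probe set stood at 96.5 to 97.3 in fresh cells and 98.4 to 98.8 in culture, and 1456462_x_at at 71.5 to 76.9 and 89.7 to 91.1. The latter shifted by 16.5 points, and 4.6% of the 21020 probe sets above the median on every fresh array shifted as high. The most intense Ppp1r12a probe set stood at 94.3 to 95.6 and 94.6 to 95.1. Its probe set 1453163_at shifted by 10.5 points, and 11.6% of those probe sets shifted as high. Ppp1r12a 1429487_at and Ppp1cb 1431328_at shifted by -4.2 and -1.4 points. Over all 25 member probe sets, every cultured array ranked above every fresh array for 8 and below for 9, beside 43.1% and 40.0% of all probe sets, so such a shift was common over the whole table. Scaling an array leaves such ranks as they are; any other difference in processing between the conditions cannot be told apart from the condition.

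**Figure D3:**
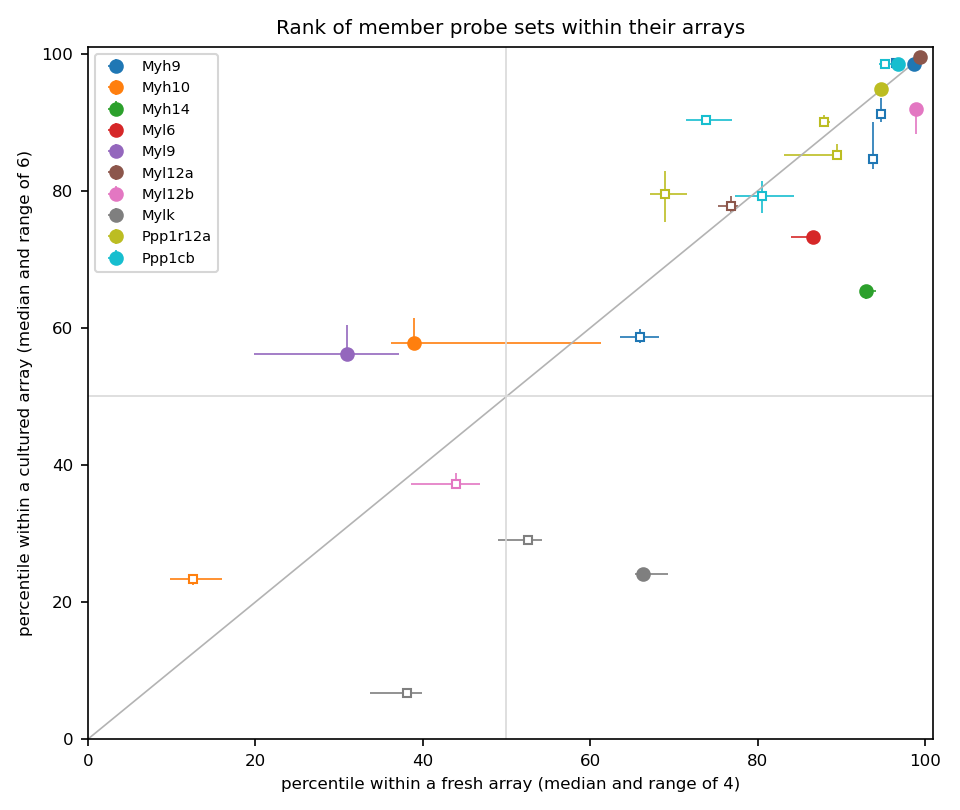
Percentile of each of the 25 member probe sets within its array, fresh on the horizontal axis (median and range of 4 arrays) against cultured on the vertical axis (median and range of 6), with filled circles for the most intense probe set of a gene, open squares for the others and the line of equal rank. Myh14, at 93.0 and 65.4, and the brightest Mylk probe set, at 66.3 and 24.1, lie farthest below the line among the filled circles.

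The other genes of the pathway were given by lists of 54 symbols, of which 48 had a probe set and 41 were tested in both conditions. None was called for genotype in either condition. Among the kinases of the light chain and their calmodulins, 1 of 10 tested was higher and 3 lower in culture at an unadjusted p under 0.05, and 0 in fresh cells. The shares over all probe sets were 7.16% higher and 8.49% lower in culture and 6.01% and 6.89% in fresh cells. Dapk1, a death-associated kinase, read 132, 227 and 131 in cultured controls and 229, 492 and 419 in KO (log2 change 1.20, limma adjusted p = 0.220). Dapk2 (log2 change -0.62), the cytokinesis kinase gene Cit (-0.60) and Stk17b (-0.23) were the lower ones, with limma adjusted p from 0.149 to 0.265.

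Among the other phosphatase subunits and inhibitors, 2 of 7 were lower in culture and 1 of 7 higher in fresh cells at an unadjusted p under 0.05, beside 8.49% and 6.01% of all probe sets. The targeting subunit gene Ppp1r12c had a log2 change of -0.50 in culture (limma adjusted p = 0.252). The inhibitor gene Ppp1r14a read 26.0, 10.9 and 14.1 in cultured controls and 7.1, 8.6 and 10.9 in KO, near the array median (log2 change -0.86, limma adjusted p = 0.308). The catalytic subunit gene Ppp1ca had a log2 change of 0.21 in fresh cells (limma adjusted p = 0.340).

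Of 25 partners of myosin and stress fibre proteins, 2 were higher and 7 lower in culture and 2 higher and 5 lower in fresh cells at an unadjusted p under 0.05, beside 7.16% and 8.49% of all probe sets in culture and 6.01% and 6.89% in fresh cells. The median log2 changes were -0.12 and -0.07, beside -0.01 and 0.00 over all probe sets. Tropomyosins coat actin filaments and set myosin's access to them. Nearest to a call were Tpm1 in culture and Tpm2 in fresh cells. Tpm3 and Tpm4 had log2 changes of 0.02 and -0.09 in culture and -0.13 and -0.14 in fresh cells. Tpm1 read 7288, 7210 and 6980 in cultured controls and 9696, 10469 and 11409 in KO (log2 change 0.55, SE 0.07, limma adjusted p = 0.0627). Its fresh values were 781 and 827 in controls and 697 and 823 in KO (log2 change -0.09). Under 5 alternatives limma called the change in culture, with adjusted p from 0.0213 to 0.0489, and under the others it did not, with adjusted p up to 0.249. The probe set 1423049_a_at gave 0.59 in culture (limma adjusted p = 0.0681) and 0.03 in fresh cells. The probe set 1456623_at went otherwise, at 348 and 349 in fresh controls and 215 and 191 in fresh KO (log2 change -0.78, limma adjusted p = 0.249) and 0.00 in culture. Averaged over its probe sets, Tpm1 gave 0.38 in culture (limma adjusted p = 0.158).

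Tpm2 was the only gene of these lists whose KO effect differed between conditions by the test. It read 844 and 866 in fresh controls and 1375 and 1514 in fresh KO (log2 change 0.76, SE 0.10, limma adjusted p = 0.242). In culture it read 16088, 18202 and 19951 in controls and 15921, 16235 and 18516 in KO (log2 change -0.10, limma adjusted p = 0.677). The difference, culture minus fresh, was -0.85 (SE 0.14, limma adjusted p = 0.0253). The probe set 1425028_a_at gave -1.15 (limma adjusted p = 0.0182), 1449577_x_at gave -0.76 (limma adjusted p = 0.0790) and the dim 1419739_at gave -0.83 (limma adjusted p = 0.160); the last had a log2 change of -0.83 in culture and 0.00 in fresh cells. The call of the difference for the most intense probe set was lost without fresh control replicate 1 (limma adjusted p = 0.124) or 2 (0.223), and without cultured control replicate 2 (0.0505) or 3 (0.0680) or cultured KO replicate 2 (0.0585) or 3 (0.0535).

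Other partners near the threshold in culture were the formin gene Diaph3 (log2 change -0.44, limma adjusted p = 0.0924), the actin-binding gene Cnn2 (-0.46, limma adjusted p = 0.132) and S100a4 (0.82, limma adjusted p = 0.148), whose product binds the Myh9 heavy chain. In fresh cells their log2 changes were 0.16, -0.24 and -0.07. For Cnn2 the KO arrays lay wholly below the controls in fresh cells too (limma adjusted p = 0.317), as for 23.5% of all fresh probe sets tested. Anln, a scaffold of the cytokinetic ring, had log2 changes of -0.29 in culture and 0.45 in fresh cells (difference -0.74, limma adjusted p = 0.0565). Shroom3, an organiser of apical junctions, was at -0.66 in culture and -0.68 in fresh cells (limma adjusted p = 0.280 and 0.303). Limch1, named after its values were seen, read 67.3, 15.2 and 13.1 in cultured controls and 7.1 to 7.5 in KO, below the array median there (log2 change -1.7, limma adjusted p = 0.283). Without control replicate 1 the log2 change was -0.95 (limma adjusted p = 0.0515), and both with 16 added to every intensity and averaged over probe sets it was -0.86.

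**Figure D4:**
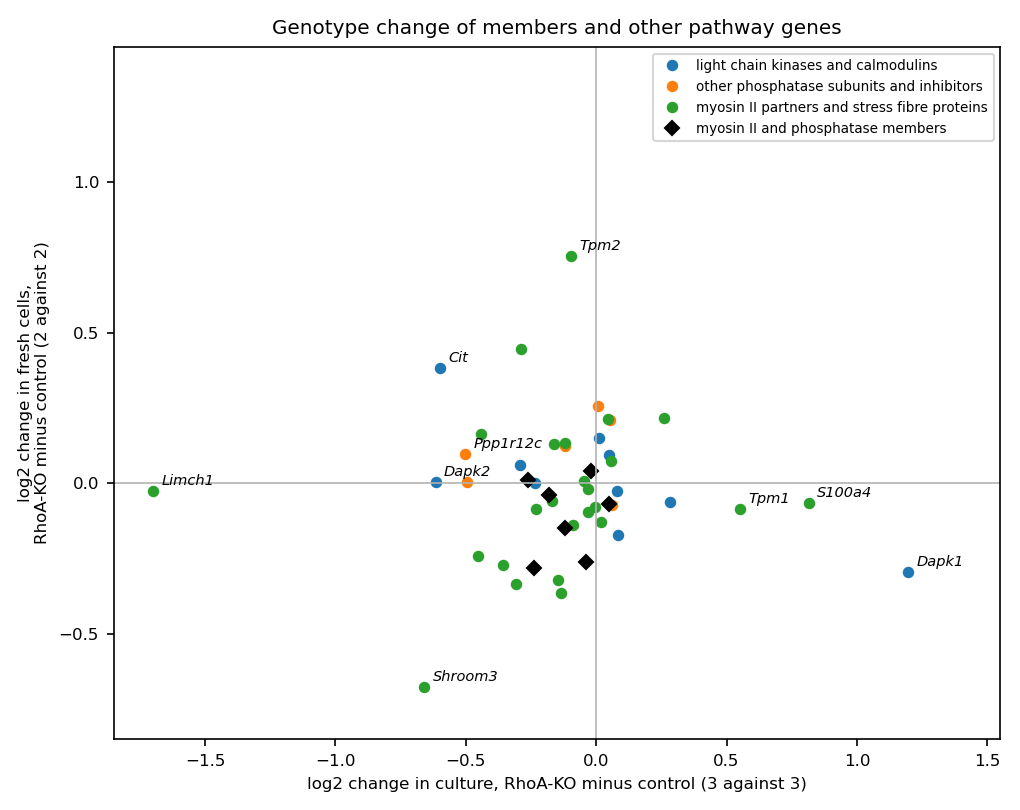
Log2 change (KO minus control) in culture on the horizontal axis (3 against 3 arrays) against fresh cells on the vertical axis (2 against 2) for the 41 pathway genes tested in both and, as black diamonds, the 7 members tested in both. Each gene is drawn by its most intense probe set. So drawn, the members lie within 0.3 of 0 on both axes, while Tpm2, at -0.10 and 0.76, lies highest. Other member probe sets, not drawn, reach -0.53 in culture (Myh9 1420170_at) and -0.45 in fresh cells (Ppp1cb 1431328_at). Labels mark genes described in the text that lie beyond 0.5 on either axis.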

How the data were processed

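Total RNA from keratinocytes was amplified with a 3′ labelling kit and hybridised to Affymetrix mouse arrays, per the labels' protocols. The authors deposited 1 linear intensity per probe set and array. The submitters' processing notes name MAS5, and no source used here gives its settings. Intensities were turned into log2 values with no offset. KO was compared with control by limma 3.58.1 in R 4.3.3 (lmFit, eBayes with trend, 2-sided), separately in each condition, over all probe sets above the array median on at least 2 arrays of it, with Benjamini-Hochberg adjustment at 0.05. The difference between conditions was tested by a t test with the moderated standard errors of both fits and Satterthwaite degrees of freedom. Its adjusted p carries the name of limma because it rests on these fits. Gene symbols follow the platform annotation, brought up to date with RefSeq names (GRCm38.p6). A gene with several probe sets was represented by its most intense one, on the mean log2 scale. Pathway genes were named if at an unadjusted p under 0.05, at most 4 per list and condition. Members and lists were chosen with earlier results of these data known. The procedure was tested on simulated data. The number of arrays limits the precision. A further gene list is not reported here.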

Additional observations from a re-analysis of the deposited data

Results flagged for a closer look

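For Tpm2, a tropomyosin gene outside the members, the KO effect in culture minus that in fresh cells was -0.85 on the log2 scale (limma adjusted p = 0.0253), the only tested difference between conditions among the genes described that passed. Its part in the other results was not tested.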

How the results depend on the processing

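With 2 and 3 arrays a group, only steady differences could pass, and every alternative here was planned. Where leaving out an array left 1 in a fresh group, that array was assumed to vary like the other groups. Over all probe sets, 62 were called in culture, against 2 with no filter on dim probe sets, 128 with each array centred on its 75th percentile, 7 without the variance trend, 299 with array weights, 395 in a fit over all 10 arrays, and 0 to 95 when each array was left out in turn. In fresh cells 0 were called, against 393 in the fit over all 10 arrays and 0 to 945 with an array left out. The difference between conditions was called for 165, against 289 with the 75th percentile, 108 without the trend, 320 with array weights, 252 in the 10-array fit and 2 to 1302 with an array left out. The replicate block, with the replicate number as a term, gave 17 calls in culture and 289 for the difference. Same-numbered cultured arrays correlated at 0.322, 0.081 and 0.249 in their deviations from the group means, and differently numbered ones at -0.3 to 0.172. For fresh arrays these values were -0.055 and 0.055. With 2 arrays a group they are equal and opposite by construction. Cultured control replicate 2 correlated best with KO replicate 3. Whether same-numbered arrays share an animal or a culture is not known here, and the main fits treated them as unpaired.

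No member probe set was called under any alternative that kept all arrays. With an array left out, 0 to 1 were called in fresh cells and 0 to 2 for the difference, in each case without fresh KO replicate 1. Of 473 member log2 changes that kept all arrays, 464 kept their direction and their side of the threshold. The other 9 changed sign: the Ppp1cb probe set 1456462_x_at in culture to 0.02 with the 75th percentile and 0.01 with quantile normalization; with array weights Myl12a 1450013_at to -0.06 and Ppp1r12a 1437734_at to -0.0022 in culture and the Myh14 difference to -0.01; and, where all probe sets of a gene were averaged, Ppp1r12a in culture to 0.10, and Ppp1cb to 0.07 in culture, -0.13 in fresh cells and 0.21 for the difference. The cause was not tested. Averaging over probe sets moved Cit in culture from -0.60 to -0.17, Ppp1r12c in culture from -0.50 to -0.25 and Shroom3 in fresh cells from -0.68 to -0.43. Ppp1r14a in culture was at -0.38 with 16 added to every intensity and at -0.51 without control replicate 1.

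With an array left out, log2 changes in culture crossed 0 for Myl9 (-0.05 to 0.58), Myl12a 1450013_at (-0.08 to 0.08), Myl12b (-0.46 to 0.04), Ppp1r12a 1437734_at (-0.09 to 0.10) and 1453163_at (-0.09 to 0.54), and Ppp1cb (-0.12 to 0.08) with 1433540_x_at (-0.06 to 0.12) and 1456462_x_at (-0.09 to 0.06). In fresh cells they did so for Myh9 1417472_at (-0.08 to 0.06), Myl6 (-0.31 to 0.02), Myl12a (-0.15 to 0.02), Myl12b (-0.03 to 0.06), Mylk (-0.01 to 0.34) with 1425505_at (-0.13 to 0.24), Ppp1r12a 1437734_at (-0.07 to 0.10) and 1453163_at (-0.09 to 0.31), and Ppp1cb (-0.11 to 0.18) with 1433540_x_at (-0.19 to 0.13) and 1456462_x_at (-0.33 to 0.16), and for Tpm1 (-0.21 to 0.03). The difference crossed 0 for Myh14 (-0.04 to 0.12), Myl6 (-0.14 to 0.19), Myl12b (-0.47 to 0.02) and Ppp1cb (-0.20 to 0.09).

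Among pathway genes, limma called Tpm1 in culture with the 75th percentile (adjusted p = 0.0381), quantile normalization (0.0476), array weights (0.0303), the 10-array fit (0.0213) and without cultured KO replicate 1 (0.0489). In culture limma also called Diaph3 with array weights (adjusted p = 0.0367) and Cnn2 with the 10-array fit (0.0421), and in fresh cells Tpm2 with the 10-array fit (0.0189). With an array left out, the Tpm2 log2 change in fresh cells ran from 0.69 to 0.82. It was 0.82 without fresh KO replicate 1, which leaves 1 KO array. The Anln difference was called with the 75th percentile (limma adjusted p = 0.0385), quantile normalization (0.0472), array weights (0.0400), the replicate block (0.0384), and without fresh KO replicate 1 (0.0402) or cultured control replicate 1 (0.0439).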
